A study of Mus musculus with 23 samples.

Results

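The circadian clock genes described here are Per1, Per2, Per3, Cry1, Cry2, Arntl, Dbp, Nr1d1, Nr1d2 and Bhlhe40, chosen by name as core components and outputs of the mammalian clock. They are 10 of the 24985 gene symbols in each of 2 tables of RNA counts from mouse hippocampus. All 10 were present in both tables and all 10 passed the filter on low counts, which left 15453 genes in whole hippocampus and 14808 in dorsal hippocampus. The study deleted exons 3 to 7 of Acss2, whose product turns acetate into acetyl-CoA in the nucleus and the cytosol, in C57BL6/J embryos at the single-cell stage, so that the loss is constitutive and present in every tissue. It asked how loss of the enzyme bears on hippocampal transcription at rest and after learning.

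The 17 dorsal libraries came from brain-matrix sections in 4 groups. Acss2 KO mice taken 30 min after contextual fear conditioning with 1 shock gave 4 libraries, and WT mice after the same conditioning gave 3. Acss2 KO mice and WT mice taken straight from the home cage gave 5 libraries each. The 6 whole hippocampus libraries were dissected freehand from home cage mice, 2 each of Acss2 KO, Acss2 heterozygotes (Het) and WT. Ages and the hour at which brains were taken are not given in the sources used here, so the part of time of day in any difference below was not tested. Nothing in the labels says that replicates are separate animals, and a p-value therefore measures the spread between these libraries, which may be technical.

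The clock is a loop of transcription and feedback that runs in nearly every cell with a period of about a day. The protein of Arntl (BMAL1) pairs with CLOCK or NPAS2 and switches on genes that carry E-box elements, among them the Per, Cry, Nr1d and Dbp genes. PER and CRY proteins return to the nucleus and block this activator, while the nuclear receptors encoded by Nr1d1 and Nr1d2 (REV-ERB alpha and beta) repress Arntl. Dbp encodes an activator of D-box elements that carries the rhythm to output genes, and Bhlhe40 (DEC1) encodes a repressor that competes for E-boxes. In the brain Per1, Per2 and Bhlhe40 are also known as genes that neuronal activity and hormones can switch on within minutes, apart from the daily cycle.

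Promoter windows were searched for the letters through which the loop is known to act. RefSeq on GRCm38.p6 gave 10 windows, each from 250 bases before to 50 after a start, for 8 of the 10 genes, and Per2 and Bhlhe40 are named only. Letters searched on both strands were the E-box CACGTG, the D-box TTATGTAA or TTACGTAA and the core of the ROR element TAGGTCA. The cAMP response element TGACGTCA and its leading stretch TGACG, which is part of the full element, were searched too. Among the 10 windows, 2 held the E-box, 1 the D-box, 1 the ROR core, 0 the full cAMP response element and 4 the stretch TGACG. Among 32851 RefSeq windows of the same length these letters stood in 7.15%, 1.06%, 2.61%, 1.79% and 20.8%. An E-box, D-box or ROR core stood only in windows of Per1, Cry1, Per3 and Arntl, and in none of Cry2, Dbp, Nr1d1 and Nr1d2. The 4 windows that held one are shown, 5′ to 3′, with the matched letters in capitals: Per1 (chr11:69098699-69098998, plus strand), Cry1 (chr10:85185005-85185304, minus strand), Per3 (chr4:151044616-151044915, minus strand) and a window of Arntl (chr7:113207261-113207560, plus strand).
Per1: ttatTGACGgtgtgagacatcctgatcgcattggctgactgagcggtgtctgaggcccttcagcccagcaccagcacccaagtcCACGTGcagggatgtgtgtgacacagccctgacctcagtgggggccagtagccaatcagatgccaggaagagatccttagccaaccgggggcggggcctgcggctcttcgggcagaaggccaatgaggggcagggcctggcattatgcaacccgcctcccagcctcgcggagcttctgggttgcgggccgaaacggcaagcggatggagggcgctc
Cry1: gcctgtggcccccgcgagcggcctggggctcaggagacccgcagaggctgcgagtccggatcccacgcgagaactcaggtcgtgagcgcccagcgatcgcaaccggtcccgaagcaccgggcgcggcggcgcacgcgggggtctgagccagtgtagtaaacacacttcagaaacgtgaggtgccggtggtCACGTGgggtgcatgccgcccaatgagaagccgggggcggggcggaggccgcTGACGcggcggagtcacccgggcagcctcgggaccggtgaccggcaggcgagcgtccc
Per3: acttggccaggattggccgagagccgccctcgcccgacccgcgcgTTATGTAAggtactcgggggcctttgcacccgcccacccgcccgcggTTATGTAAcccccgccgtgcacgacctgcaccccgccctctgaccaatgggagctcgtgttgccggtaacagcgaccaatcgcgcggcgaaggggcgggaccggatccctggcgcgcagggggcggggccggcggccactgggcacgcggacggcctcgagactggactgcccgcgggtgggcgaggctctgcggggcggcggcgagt
Arntl: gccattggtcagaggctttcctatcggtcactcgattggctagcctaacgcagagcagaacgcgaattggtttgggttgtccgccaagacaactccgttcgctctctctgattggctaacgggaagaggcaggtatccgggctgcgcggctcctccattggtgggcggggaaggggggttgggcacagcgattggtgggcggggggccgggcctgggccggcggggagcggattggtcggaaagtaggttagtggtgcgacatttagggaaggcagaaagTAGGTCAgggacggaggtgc
The E-box of Per1 began 166 bases before the start and that of Cry1 60 bases before it. Per3 held the D-box at 205 and again at 158 bases before its start. A match to these letters is a description of the window and not evidence of binding.

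Library totals ran from 5362773 to 23412644 counts in dorsal hippocampus and from 18814460 to 27293661 in whole hippocampus. Batch B1 of the labels, which holds every WT fear library, was the shallowest, with 5362773 to 9109104 counts. Acss2 RNA followed the labelled genotype in every library, at 3.87 to 7.02 CPM (counts scaled to a common library size) in KO, 31.2 and 34.3 CPM in Het and 56.2 to 71.3 CPM in WT. Both whole hippocampus KO libraries and all 17 dorsal libraries expressed the Y-linked gene Ddx3y at 70.5 CPM or more, whereas the whole hippocampus Het and WT libraries held 0 to 0.186 CPM of it and 597 to 677 CPM of Xist, the RNA of the inactive X chromosome. Sex and the KO genotype therefore cannot be told apart in whole hippocampus. All 7 hippocampal marker genes were detected in each group.

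In dorsal hippocampus of WT home cage mice the clock genes fell into an upper and a lower tier. Per length, in RPKM (CPM per kilobase of exon), dorsal WT home cage levels were 19.5 ± 1.87 for Cry2, 15.9 ± 1.41 for Nr1d1, 15.5 ± 1.08 for Nr1d2, 15.3 ± 1.79 for Dbp and 11.8 ± 1.1 for Bhlhe40 (SD, n = 5). The lower tier held Per1 at 7.31 ± 0.917, Arntl at 5.26 ± 0.685, Cry1 at 4.78 ± 0.298, Per2 at 3.41 ± 0.566 and Per3 at 2.41 ± 0.472 RPKM. Nr1d1, Nr1d2 and Dbp did not differ beyond their spread, nor did Arntl and Cry1, nor did Per2 and Per3. In whole hippocampus of WT mice the order began with Nr1d1 at 33.3 ± 0.632 and Dbp at 30.8 ± 1.41 RPKM and ended with Cry1 at 4.74 ± 0.112 and Arntl at 4.15 ± 0.0755 RPKM (SD, n = 2). Per1 stood there at 20.3 ± 0.73 RPKM, nearer to Nr1d2 at 22 ± 0.0946 than to Per2 at 8.5 ± 0.389 RPKM. Exons of Nr1d1 share 263 bp with Thra on the opposite strand and exons of Dbp share 539 bp with Sphk2, and in libraries without strand information reads of those stretches cannot be assigned to 1 gene. Overlaps with antisense transcripts of 33 to 295 bp also touch Arntl, Bhlhe40 and Cry2.

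**Figure D1:**
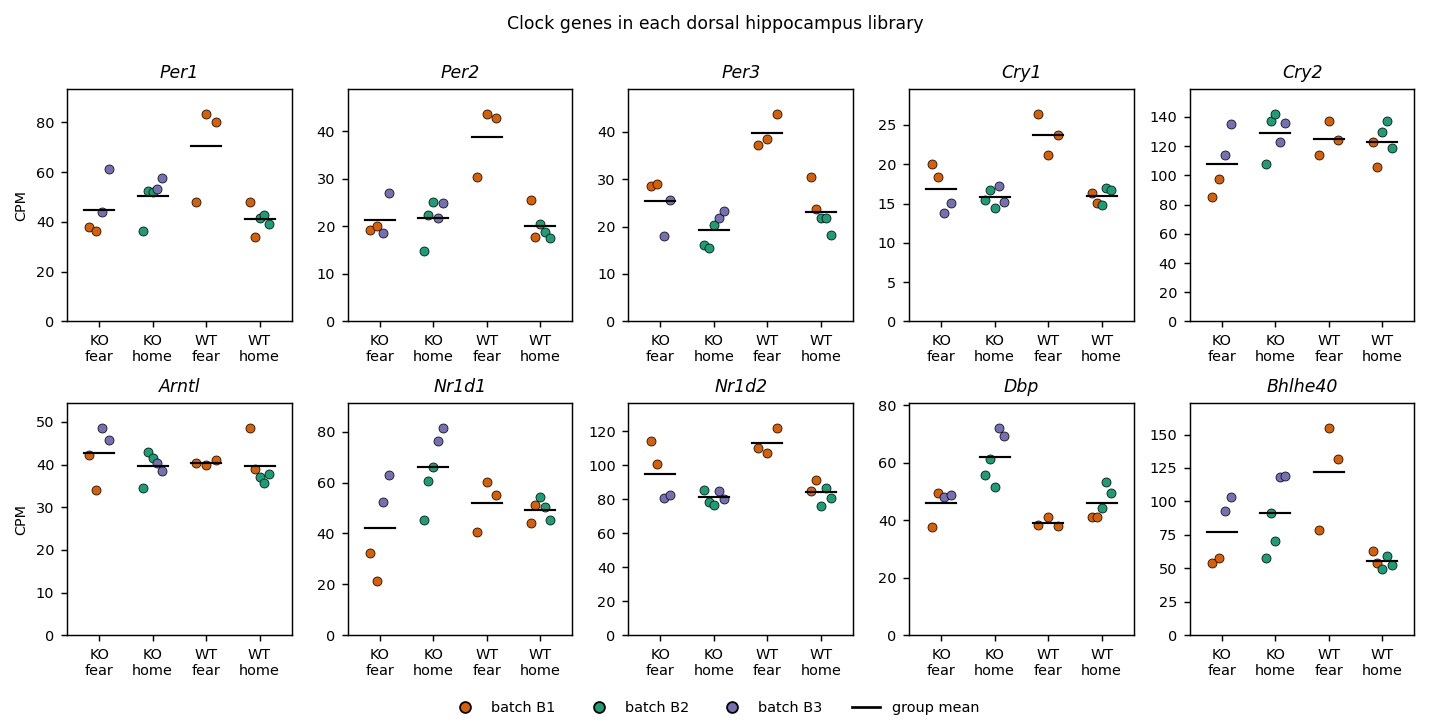
CPM (y axis, from 0) of each clock gene in every dorsal library, by group (x axis), with points coloured by the batch of the labels and a line at the group mean. The WT fear libraries stand above all WT home cage libraries for 6 genes, among them Per2 at 30.3 to 43.6 against 17.5 to 25.5 CPM. For Per1, counted among the 6, the lowest WT fear and highest WT home cage libraries are level at 48.2 CPM to the digits shown.

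Fear conditioning in WT dorsal hippocampus was followed by higher RNA of 2 period genes and of Bhlhe40. Per1 rose 1.79-fold (log2 0.84 ± 0.20 SE), Per2 rose 1.87-fold (0.90 ± 0.21) and Bhlhe40 rose 2.15-fold (1.11 ± 0.20), with edgeR adjusted p-values of 0.0494, 0.0454 and 0.0233 (n = 3 WT fear and 5 WT home cage libraries). These are 3 of 10 clock genes higher, where 0.871% of all genes tested were called higher. Among the other 7, 5 had positive log2 differences and 0 passed the test.

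Per1, whose protein is an inhibitor of the CLOCK and BMAL1 pair, stood at 48.2, 83.4 and 80.0 CPM in WT fear libraries 1 to 3, against 48.2, 34.1, 41.7, 42.9 and 39.0 CPM in WT home cage libraries 1 to 5. Fear library 1 was level with the highest home cage library to the digits shown, and the other two fear libraries stood well above all 5. Per2, the partner inhibitor whose loss disturbs daily rhythm in mice, was at 30.3, 43.6 and 42.7 CPM in WT fear, against 25.5, 17.7, 20.5, 18.7 and 17.5 CPM in WT home cage. Its groups did not overlap, and fear library 1 was again the lowest of the fear libraries. Bhlhe40 followed with 78.3, 155 and 132 CPM in WT fear, against 62.8, 54.2, 49.6, 59.1 and 52.7 CPM in WT home cage. All 3 genes thus shared 1 order over the fear libraries, with library 1 lowest and library 2 highest. The summed level of 5 neocortical marker genes had that order too, at 107, 194 and 127 CPM in WT fear 1 to 3. That of 7 hippocampal marker genes did not, at 866, 970.1 and 1135 CPM.

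The third period gene and the cryptochromes followed less firmly. Per3 was at 37.1 to 43.7 CPM in WT fear and 18.2 to 30.4 CPM in WT home cage, without overlap, but the difference adjusted for batch was 0.48 ± 0.16 on the log2 scale (edgeR adjusted p = 0.114). Cry1, the stronger repressor of the cryptochrome pair, was at 21.2 to 26.4 CPM in WT fear and 14.8 to 17.0 CPM in WT home cage, a log2 difference of 0.48 ± 0.14 (adjusted p = 0.0796). Cry2 overlapped at 114 to 137 CPM in WT fear and 106 to 137 CPM in WT home cage, with 0.18 ± 0.13 (adjusted p = 0.437). Per3 thus separated by level and not by the test with batch as a term, and Cry1 came closest of these to the threshold of 0.05.

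The activator and the nuclear receptors gave smaller differences. Arntl stood at 39.9 to 41.0 CPM in WT fear, inside the 35.6 to 48.5 CPM of WT home cage, with a log2 difference of -0.01 ± 0.14. Nr1d1 was at 40.7 to 60.4 CPM in WT fear and 44.0 to 54.5 CPM in WT home cage (0.25 ± 0.19, adjusted p = 0.46). Nr1d2 was at 107 to 122 CPM in WT fear and 76.3 to 91.5 CPM in WT home cage (0.29 ± 0.10, adjusted p = 0.132). Dbp, the output gene, was the one clock gene with all fear libraries below all home cage libraries, at 38.1 to 41.0 CPM in WT fear and 41.2 to 53.4 CPM in WT home cage (-0.16 ± 0.13, adjusted p = 0.482). In all, 6 of 10 clock genes were higher without overlap and 1 was lower, where 7.7% and 8.45% of all genes tested did so. Per1 counts among the 6 by less than the digits shown, with 48.2 CPM in both WT fear 1 and WT home cage 1.

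Genes of neighbouring lists moved with the same comparison. Of 12 activity-induced genes, 9 rose, among them Egr2 by 4.68 ± 0.49, Fos by 2.54 ± 0.31 and Arc by 1.98 ± 0.27 on the log2 scale, and the median of the list was 1.5. The clock genes had a median of 0.38 and all genes tested one of -0.019. Of 9 other clock outputs and feedback genes only Tef, a relative of Dbp, rose (0.46 ± 0.10, adjusted p = 0.0425), with Hlf, a further relative, at 0.72 ± 0.20 (adjusted p = 0.0646). None of 6 genes of the positive arm and the RORs and none of 9 kinases and turnover genes of clock proteins passed. Among 12 glucocorticoid-induced genes Ddit4 rose (0.54 ± 0.11), and among 8 temperature-responsive genes Dnajb1, a heat shock co-chaperone, rose (0.52 ± 0.12).

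Cell type markers moved too. The summed level of 6 oligodendrocyte genes, of which 5 fell, was 2439 to 3425 CPM in WT fear and 4359 to 8589 CPM in WT home cage. The 5 ependymal genes, of which 2 fell, summed to 6.82 to 8.28 CPM in WT fear and 29.0 to 84.4 CPM in WT home cage. The 7 hippocampal neuron genes, of which 2 rose and 1 fell, summed to 866 to 1135 CPM in WT fear and 631 to 822 CPM in WT home cage. Neocortical genes, 1 of 5 higher, summed to 107 to 194 CPM in WT fear and 103 to 119 CPM in WT home cage. Thalamic genes, 1 of 5 lower, summed to 41.3 to 69.1 CPM in WT fear and 76.3 to 124 CPM in WT home cage. Endothelial genes, 0 of 3 called, summed to 28.4 to 34 CPM in WT fear and 38.1 to 64.2 CPM in WT home cage. Tmem212 and Dynlrb2 of the ependymal genes and Folr1 and Kcnj13 of the choroid plexus genes were at 0 in at least 1 WT fear library, and no marker was at 0 over a whole group. In bulk tissue fewer cells of a type and less RNA per cell cannot be told apart, and the part of tissue make-up in the clock gene differences was not tested. Within batch B1 alone (3 WT fear and 2 WT home cage libraries) the log2 differences were 0.80 for Per1, 0.86 for Per2 and 1.07 for Bhlhe40, with 0 of 10 clock genes past the test (edgeR adjusted p = 0.242, 0.181 and 0.173). Leaving out WT fear 2, WT fear 3 or WT home cage 2 took the count of clock genes called to 0, and leaving out any KO fear library, KO home cage 2, 4 or 5 or WT home cage 4 or 5 took it to 1. All genes called fell with it, to 13, 10 and 6 in the fits that reached 0 and 32 to 201 in those that reached 1, against 241 with every library.

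**Figure D2:**
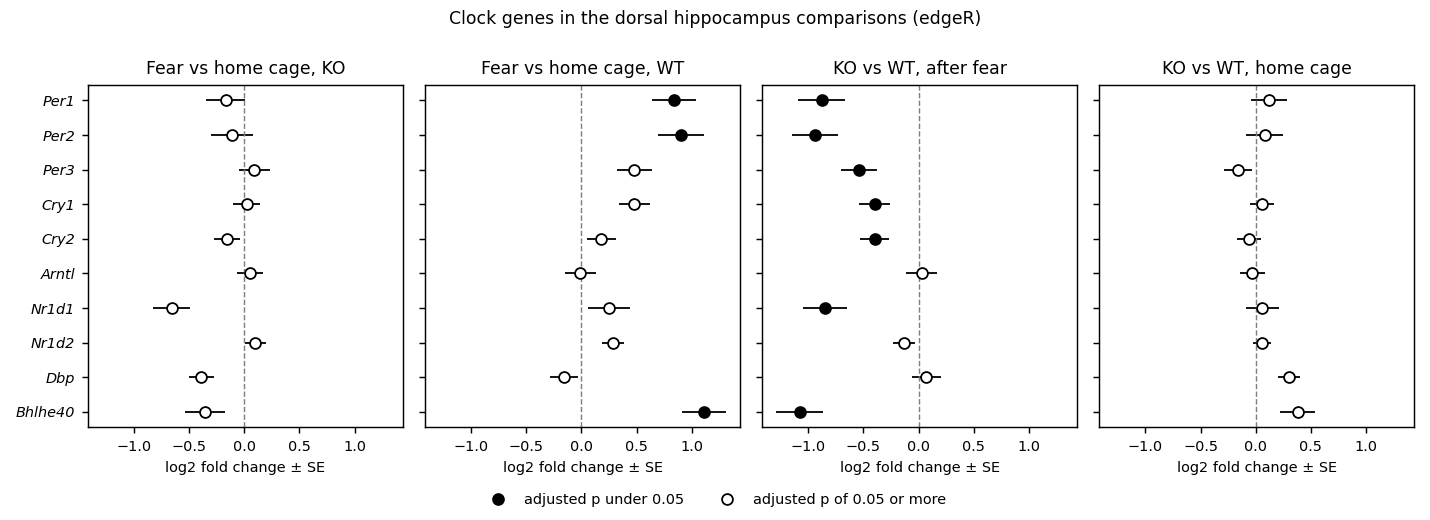
Log2 fold change ± SE from edgeR (x axis) of each clock gene (y axis) in 4 dorsal comparisons, with filled circles for an adjusted p under 0.05. Per1, Per2 and Bhlhe40 are filled in WT fear against home cage, 7 genes are filled below 0 in KO against WT after fear, and none is filled in the other 2 panels.

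Fear conditioning in KO dorsal hippocampus gave no clock gene that passed the test (0 of 10, where edgeR called 0% of all genes). DESeq2 called 6 genes and 0 clock genes, and 714 genes, 2 of them clock genes, had an unadjusted edgeR p under 0.05. The genes that rose in WT had log2 differences near or below 0 in KO: Per1 -0.17 ± 0.18, Per2 -0.11 ± 0.19 and Bhlhe40 -0.36 ± 0.18. The largest differences were those of Nr1d1 and Dbp, both downward.

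Per1 was at 37.9, 36.3, 44.2 and 61.2 CPM in KO fear libraries 1 to 4, against 36.3, 52.4, 52.0, 53.1 and 57.5 CPM in KO home cage libraries 1 to 5. Per2 was at 19.3, 20, 18.6 and 27.1 CPM in KO fear, against 14.9, 22.3, 25.1, 21.7 and 24.8 CPM in KO home cage. Bhlhe40 was at 54.3, 57.8, 92.5 and 103 CPM in KO fear, against 57.6, 91.0, 70.1, 118 and 119 CPM in KO home cage. The groups overlapped for all 3 genes, and KO fear 4 was the highest fear library of each. Fear libraries 1 and 2 belong to batch B1 and 3 and 4 to B3, and for Bhlhe40 both B3 libraries of the fear group and both of the home cage group (4 and 5) stood above all others of their group.

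Nr1d1, the repressor of Arntl, was at 32.3, 21.2, 52.2 and 63.0 CPM in KO fear, against 45.3, 60.7, 66.1, 76.4 and 81.5 CPM in KO home cage. Its batch-adjusted difference was -0.66 ± 0.17 on the log2 scale, with an edgeR adjusted p of 0.968 (0.00146 before adjustment over all genes), and the groups overlapped. Dbp was at 37.7, 49.3, 47.9 and 48.7 CPM in KO fear, against 55.8, 61.2, 51.7, 72.1 and 69.4 CPM in KO home cage (-0.39 ± 0.11, adjusted p = 0.968). Dbp was the only clock gene whose KO groups did not overlap, with every fear library below every home cage library, as 1.97% of all genes were. Per3 (0.09 ± 0.14), Cry1 (0.02 ± 0.12), Cry2 (-0.16 ± 0.12), Arntl (0.05 ± 0.12) and Nr1d2 (0.10 ± 0.093) differed by less or by little more than their standard errors. Within batch B3 (2 libraries in each group) Nr1d1 differed by -0.47 and Dbp by -0.56, each with an adjusted p of 0.87. Of the 12 activity-induced genes all had positive log2 differences in KO, with a median of 0.43, and 0 passed. Cell type markers gave 0 calls as well. Neocortical genes, 0 of 5 above 0, summed to 84.5 to 98.3 CPM in KO fear and 98.9 to 119.5 CPM in KO home cage. Thalamic genes had 0 of 5 above 0, with a median of -0.78. Ependymal genes had 4 of 5 above 0 and choroid plexus genes 5 of 5, with medians of 0.15 and 0.34. Their part in the clock gene differences in KO was not tested.

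The difference between the fear responses was tested directly. The response of Bhlhe40 was lower in KO than in WT by -1.47 ± 0.23 on the log2 scale (edgeR adjusted p = 0.0406), a ratio of 0.362. It was 1 of 10 clock genes called lower, where 0.284% of all genes tested were. KO minus WT for Bhlhe40 was -1.08 after fear and 0.38 in the home cage, and both enter this value. Per1 (-1.0 ± 0.23, adjusted p = 0.0543), Per2 (-1.02 ± 0.24, adjusted p = 0.0549) and Nr1d1 (-0.91 ± 0.22, adjusted p = 0.0618) came close to the threshold without passing. Of the other 6, Cry1 (-0.46 ± 0.16), Per3 (-0.39 ± 0.18), Cry2 (-0.34 ± 0.15), Dbp (-0.24 ± 0.15) and Nr1d2 (-0.19 ± 0.12) were negative and Arntl was at 0.06 ± 0.16. The median over the clock genes was -0.42, beside 0.034 over all genes tested. Among activity-induced genes 3 of 12 were lower, namely Egr2 (-2.75 ± 0.53), Egr1 (-1.38 ± 0.27) and Junb (-1.15 ± 0.22). Cell type markers differed in the same comparison: oligodendrocyte genes had a median of 1 with 6 of 6 above 0 and 0 called, ependymal genes a median of 3.4 with 1 of 5 called higher, and of 7 hippocampal genes 1 was called higher and 1 lower. Their part in the difference was not tested. The call of Bhlhe40 was kept in 5 of 17 fits that left out 1 library (KO home cage 1, 2 or 3, WT fear 1 or WT home cage 1), and without WT fear 2 its value was -1.26 (adjusted p = 0.186). Averaged over both genotypes, fear gave 0 of 10 clock genes past the test, where 0.0608% of all genes were called, with Per2 at 0.40 ± 0.16 and Dbp at -0.28 ± 0.097. DESeq2 called 0 clock genes there too, and 7 had an unadjusted edgeR p under 0.05, as had 10.8% of all genes.

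After fear conditioning 7 of 10 clock genes were lower in KO than in WT dorsal hippocampus, where 12.1% of all genes tested were lower and 22.3% were called in either direction. The 7 were Per1 (-0.88 ± 0.21 on the log2 scale, adjusted p = 0.0163), Per2 (-0.94 ± 0.21, 0.0155), Per3 (-0.54 ± 0.16, 0.0269), Cry1 (-0.40 ± 0.14, 0.047), Cry2 (-0.40 ± 0.13, 0.0415), Nr1d1 (-0.85 ± 0.20, 0.0165) and Bhlhe40 (-1.08 ± 0.21, 0.0155), all by edgeR with n = 4 KO and 3 WT libraries. The 7 are the 3 period genes, both cryptochromes and 2 further repressors of the loop. The calls of the cryptochromes were the least stable: in 17 fits that left out 1 library Cry1 passed in 2 and Cry2 in 8, and within batch B1 neither passed (-0.28 and -0.44, adjusted p = 0.287 and 0.0657). Arntl (0.03 ± 0.14), Dbp (0.07 ± 0.13) and Nr1d2 (-0.13 ± 0.10) did not pass. This comparison shares its WT fear libraries with that of fear in WT, so the 2 are not separate evidence.

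The values per library show how far the groups stood apart. Per2 was at 18.6 to 27.1 CPM in KO fear and 30.3 to 43.6 CPM in WT fear, Per3 at 18.1 to 28.9 CPM in KO fear and 37.1 to 43.7 CPM in WT fear, and Cry1 at 13.8 to 20.1 CPM in KO fear and 21.2 to 26.4 CPM in WT fear. These 3 genes were lower without overlap, as 10.6% of all genes were. Per1 overlapped through KO fear 4 at 61.2 CPM and WT fear 1 at 48.2 CPM. Nr1d1 overlapped as well, at 21.2 to 63.0 CPM in KO fear and 40.7 to 60.4 CPM in WT fear, and so did Bhlhe40, at 54.3 to 103 CPM in KO fear and 78.3 to 155 CPM in WT fear. Cry2 was at 85.4, 97.6, 114 and 135 CPM in KO fear and 114, 137 and 124 CPM in WT fear, where the B1 libraries of KO are the 2 lowest.

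Other genes of the clock moved in the same comparison. Of 9 further outputs and feedback genes 3 fell: Hlf (-0.93 ± 0.20), Bhlhe41, the relative of Bhlhe40 (-0.52 ± 0.13), and Noct, a daily regulated phosphatase (-0.48 ± 0.12). Of 9 kinase and turnover genes 3 fell, the kinases Gsk3b (-0.70 ± 0.15) and Csnk1d (-0.39 ± 0.10) and the ubiquitin ligase subunit Btrc (-0.35 ± 0.11), and Tipin rose (0.50 ± 0.18). None of the 6 genes of the positive arm and the RORs passed. Of 12 activity-induced genes 3 fell (Fosb, Egr1 and Egr4, by 1.01, 0.90 and 0.83 on the log2 scale), and of 12 glucocorticoid-induced genes 3 fell and 1 rose, with Zbtb16 at -0.91 ± 0.20 and Mt1 at 0.93 ± 0.25. Of 8 temperature-responsive genes Hspa8 rose by 0.37 ± 0.10. In this comparison 10.2% of all genes tested were called higher and 12.1% lower, so a single call in a list lies near these shares.

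Cell type markers differed between the same groups. Oligodendrocyte genes, 5 of 6 higher, summed to 4297 to 7152 CPM in KO fear and 2439 to 3425 CPM in WT fear. All 5 ependymal genes were higher, with sums of 24.3 to 67.0 CPM in KO fear and 6.82 to 8.28 CPM in WT fear, and 4 of 5 choroid plexus genes were higher (97.1 to 506 CPM in KO fear and 46.9 to 141 CPM in WT fear). Of 7 hippocampal genes 3 were lower and 2 higher, with a median log2 difference of -0.75 and sums of 631 to 1026 CPM in KO fear and 866 to 1135 CPM in WT fear. In the thalamic list 1 of 5 genes was higher, and in the astrocyte list 1 of 3. Of 5 neocortical genes 3 were lower, with sums of 84.5 to 98.3 CPM in KO fear and 107 to 194 CPM in WT fear. Their part in the clock gene differences was not tested. Within batch B1 (2 KO and 3 WT libraries) 4 of 10 clock genes passed: Per1 (-0.92), Per2 (-0.98), Nr1d1 (-0.96) and Bhlhe40 (-1.11), with edgeR adjusted p-values of 0.017, 0.0111, 0.016 and 0.0131, among 2362 genes called in all. The hippocampal genes summed to 631 and 656 CPM in the 2 KO libraries of B1, below the 866 to 1135 CPM of WT fear. They summed to 957 and 1026 CPM in KO fear 3 and 4. The part of these markers in the B1 calls was not tested. Leaving out KO fear 2, WT fear 2 or WT fear 3 took the clock genes called to 0, and the genes called in all to 1 or 2.

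In the home cage KO and WT dorsal hippocampus gave no clock gene past the test (0 of 10, where 0.00675% of all genes were called). DESeq2 called 0 as well, and 2 clock genes had an unadjusted edgeR p under 0.05, as had 11.3% of all genes. The differences with the smallest p were those of Dbp (0.30 ± 0.10, edgeR adjusted p = 0.44) and Bhlhe40 (0.38 ± 0.16, adjusted p = 0.44), both higher in KO. Dbp was at 51.7 to 72.1 CPM in KO and 41.2 to 53.4 CPM in WT, and Bhlhe40 at 57.6 to 119 CPM in KO and 49.6 to 62.8 CPM in WT. Both pairs of groups overlapped through the lowest KO libraries, and 0 of 10 clock genes had groups apart, where 3.09% of all genes did. The other 8 clock genes had log2 differences of -0.16 ± 0.13 (Per3) to 0.12 ± 0.16 (Per1), with Per2 at 0.08 ± 0.17, Nr1d1 at 0.06 ± 0.15 and Arntl at -0.03 ± 0.11. Within batch B2 (3 libraries in each group) Dbp differed by 0.20 and Bhlhe40 by 0.44, each with an adjusted p of 0.817. Of 12 activity-induced genes 11 were above 0 in KO home cage, with a median of 0.49, and 0 passed. The median over all genes was -0.019. Among markers, with 0 called in these lists, hippocampal genes had 4 of 7 above 0 (median 0.34) and endothelial genes 0 of 3 (median -0.58). The part of these genes in the clock gene differences was not tested.

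**Figure D3:**
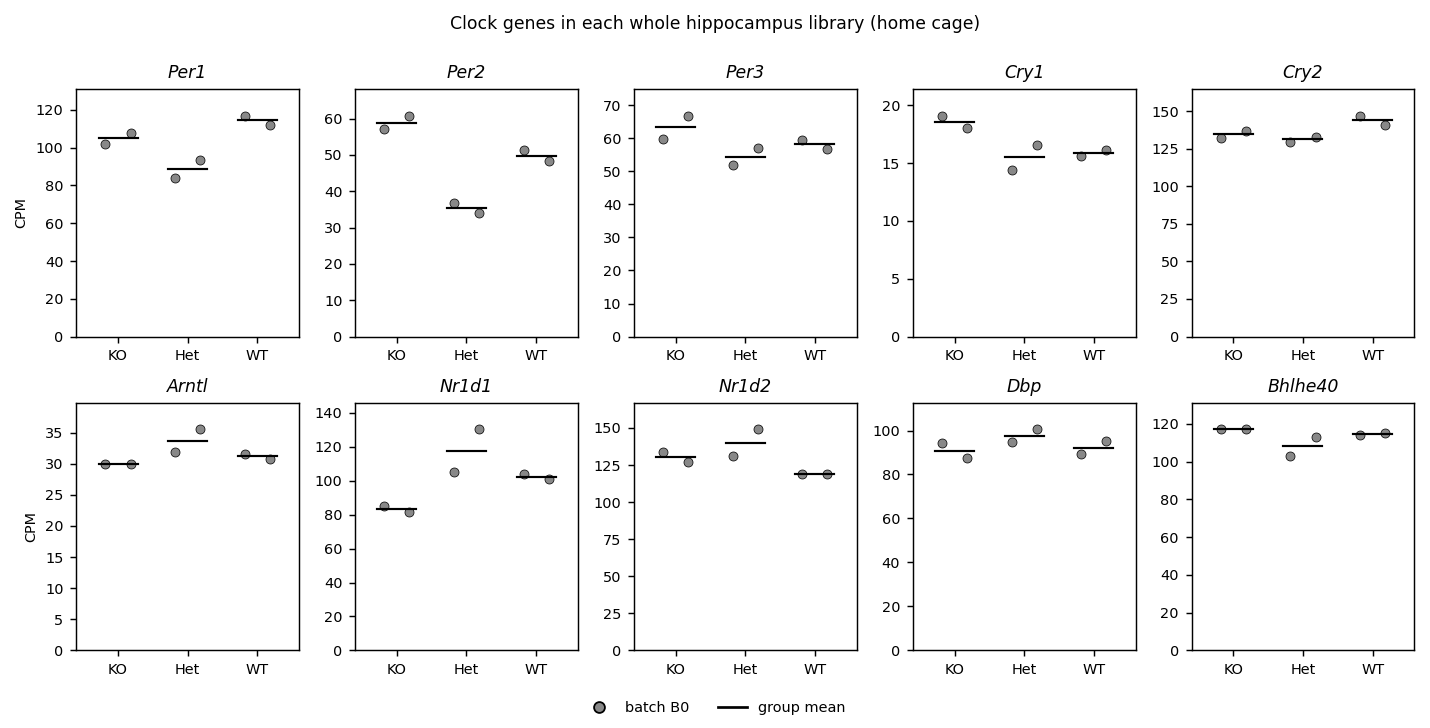
CPM (y axis, from 0) of each clock gene in the 2 KO, 2 Het and 2 WT libraries of whole hippocampus (x axis), with a line at the group mean. Per2 is at 57.0 and 60.8 CPM in KO, 36.7 and 34.1 in Het and 51.4 and 48.2 in WT.

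In whole hippocampus at rest the clearest difference lay between KO and Het. Per2 was at 57.0 and 60.8 CPM in KO, against 36.7 and 34.1 CPM in Het, and rose 1.66-fold (log2 0.73 ± 0.071, edgeR adjusted p = 0.0427, n = 2 each). It was 1 of 10 clock genes called higher, where 0.0453% of all genes tested were. Nr1d1 ran the other way, at 84.9 and 81.8 CPM in KO, against 105 and 130.3 CPM in Het (-0.50 ± 0.098, adjusted p = 0.217). Per1 was at 102 and 108 CPM in KO, against 84.2 and 93.6 CPM in Het (0.24 ± 0.070, adjusted p = 0.294). KO libraries were higher than Het without overlap for 5 clock genes and lower for 3, where 20% and 23% of all genes did so. Among the other lists only the glucocorticoid-induced one held called genes, Sgk1 (1.19 ± 0.095) and Tsc22d3 (0.54 ± 0.056), 2 of 12, both higher in KO. Activity-induced genes had 0 of 12 above 0, with a median of -0.77. Among markers, with 0 called, neocortical genes had 0 of 5 above 0 (median -0.75), hippocampal genes 6 of 7 (0.25) and choroid plexus genes 5 of 5 (1.9). Their part was not tested, and sex and the KO genotype cannot be told apart here. The call of Per2 was kept in 1 of 6 fits that left out 1 library, the fit without Het 1, and was lost without each of the other 5 (log2 values of 0.68 to 0.79 over all 6 fits, adjusted p of at most 0.509).

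Het against WT gave 0 of 10 clock genes past the test (edgeR called 0% of all genes), with 4 clock genes and 2145 genes in all at an unadjusted p under 0.05. Per2 at 36.7 and 34.1 CPM in Het, against 51.4 and 48.2 CPM in WT, had the smallest p (-0.49 ± 0.072, adjusted p = 0.166), and Per1 at 84.2 and 93.6 CPM in Het, against 117 and 112 CPM in WT, followed (-0.36 ± 0.070, adjusted p = 0.22). DESeq2, which called 139 genes, called both, with adjusted p-values of 0.00169 for Per2 and 0.0147 for Per1. Nr1d2 (0.24 ± 0.070) and Nr1d1 (0.20 ± 0.098) were on the higher side in Het. Het libraries were higher than WT without overlap for 3 clock genes and lower for 4, where 23.7% and 22.9% of all genes did so. Het 2 stood apart in neocortical and hippocampal markers. Its 5 neocortical genes summed to 321 CPM, against 211 CPM in Het 1 and 166 and 174 CPM in WT. Its 7 hippocampal genes summed to 592 CPM, against 860.2 CPM in Het 1. Choroid plexus genes split the 2 libraries of every whole hippocampus group. The 5 genes summed to 32.1 and 2530.3 CPM in WT 1 and 2, and to 35.9 and 962 CPM in Het 1 and 2. In KO 1 and 2 they summed to 3994 and 30.7 CPM. The part of these markers in the clock gene differences was not tested. Without Het 1, so with Het 2 as the lone Het library, 4 clock genes passed (Per1 and Per2 lower, Nr1d1 and Nr1d2 higher) among 1424 genes called in all.

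KO against WT whole hippocampus gave 0 of 10 clock genes past the test (0.0388% of all genes were called). By DESeq2 the count was 0 as well, and 2 clock genes had an unadjusted edgeR p under 0.05, as had 6.09% of all genes. Per2 was higher in KO by 0.24 ± 0.070 and Nr1d1 lower by -0.30 ± 0.099 on the log2 scale, with edgeR adjusted p-values of 0.774 and 0.802. Cry1 was at 19.1 and 18 CPM in KO and 15.6 and 16.1 CPM in WT (0.23 ± 0.099). Dbp (-0.02 ± 0.065), Bhlhe40 (0.02 ± 0.058) and Arntl (-0.06 ± 0.075) differed by less than their standard errors. KO libraries were higher without overlap for 5 clock genes and lower for 4, where 20.2% and 21.9% of all genes did so. Mean Per2 was lowest in Het and highest in KO, mean Nr1d1 was lowest in KO and highest in Het, and WT lay in the middle for both.

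**Figure D4:**
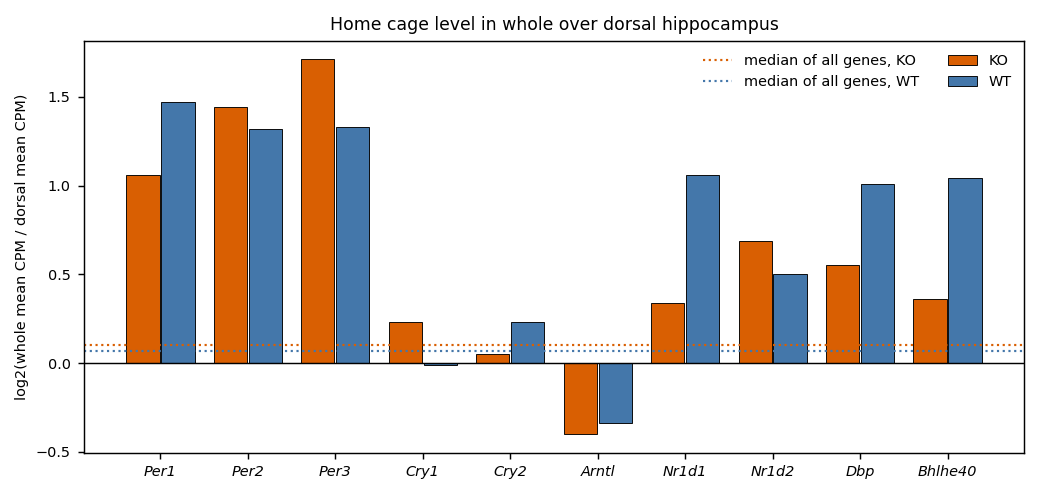
Log2 ratio of the mean CPM in whole over dorsal hippocampus of home cage mice (y axis) for each clock gene (x axis), in KO and WT, with dotted lines at the median of all genes. The period genes reach 1.06 to 1.71, and Arntl is at -0.40 in KO and -0.34 in WT.

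The 2 experiments were set side by side in the home cage, without a test, since tissue, dissection and batch differ between them and, in WT, sex as well. The period genes were 2.09 to 3.27 times as high in whole as in dorsal hippocampus: in KO the log2 ratios were 1.06 for Per1, 1.44 for Per2 and 1.71 for Per3, and in WT 1.47, 1.32 and 1.33. Over 14700 genes the median was 0.099 in KO and 0.066 in WT, and 9.01% and 7.46% of genes were above 1. Dbp (0.55 in KO, 1.01 in WT), Nr1d1 (0.34 and 1.06), Nr1d2 (0.69 and 0.50) and Bhlhe40 (0.36 and 1.04) were also on the whole hippocampus side. Cry1 (0.23 and -0.01) and Cry2 (0.05 and 0.23) lay near the median, and Arntl lay on the dorsal side at -0.40 in KO and -0.34 in WT. Ciart, a clock repressor outside the 10 genes, reached 1.36 in KO and 2.03 in WT. Of the genes outside the 10 that work with Arntl, Npas2 lay on the whole hippocampus side at 0.72 in KO and 1.25 in WT, and Clock was at 0.27 in KO and -0.08 in WT. The dorsal side in both genotypes was thus that of Arntl and not of its partners. Genes outside the clock lay on the whole hippocampus side too. Among glucocorticoid-induced genes Sgk1 was at 1.25 in KO and 0.80 in WT and Tsc22d3 at 0.92 and 1.01, but Mt1 at -0.88 and 0.20. Among activity-induced genes Fos was at 0.52 in KO and 2.28 in WT and Arc at -0.03 and 1.18. Their part in the clock gene ratios was not tested.

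The balance of day and night genes was also taken within each library. The mean log2 CPM of 9 day and evening genes (Dbp, Nr1d1, Nr1d2, the 3 period genes, Tef, Ciart and Bhlhe41) minus that of 3 night and morning genes (Arntl, Npas2 and Clock) was taken as a value to compare between libraries. It was 0.82 and 0.83 in the whole hippocampus KO libraries, 0.60 and 0.64 in Het and 0.77 and 0.79 in WT. After fear in dorsal hippocampus it ran from -0.24 to 0.29 in KO and from 0.01 to 0.31 in WT. Without fear, dorsal KO libraries spanned 0.05 to 0.30 and dorsal WT libraries -0.16 to 0.15. Each whole hippocampus library lay above each dorsal one. The night and morning genes alone were not lower in whole hippocampus: their mean log2 CPM was 5.47 and 5.48 in whole and 4.98 to 5.36 in dorsal home cage KO libraries, and 5.50 and 5.55 in whole and 5.09 to 5.48 in dorsal home cage WT libraries. Tissue, batch and hour of collection cannot be told apart in this difference.

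A few of the clock genes differed between batches within dorsal hippocampus, in tests of the batch terms that were added after the data had been seen. Nr1d1 was higher in B3 than in B1 by 0.88 ± 0.18 and than in B2 by 0.63 ± 0.16 on the log2 scale (edgeR adjusted p = 0.00644 and 0.0413). Bhlhe40 was higher in B3 than in B1 by 0.72 ± 0.19 and than in B2 by 0.77 ± 0.17 (adjusted p = 0.0207 and 0.0222). These are 2 of 10 clock genes in each comparison, where 6.17% and 2.06% of all genes were higher. Per3 was lower in B2 than in B1 by -0.52 ± 0.14 (adjusted p = 0.0246), 1 of 10, where 4.94% of all genes were lower. B3 holds KO libraries only, and the WT fear libraries are all of B1. In KO fear, which has libraries of B1 and B3, hippocampal genes summed to 631 and 656 CPM in libraries 1 and 2 (B1). They summed to 957 and 1026 CPM in libraries 3 and 4 (B3). The part of tissue make-up in the batch differences was not tested. Without batch terms Nr1d1 differed between KO and WT after fear by -0.29 (adjusted p = 0.473) and Bhlhe40 by -0.66 (adjusted p = 0.0954).

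Once group and batch were taken out, the clock genes did not vary as 1 block from library to library. The SD of these residuals on the log2 scale was 0.28 for Per1 and Bhlhe40, 0.27 for Per2 and 0.26 for Nr1d1, at the 67.1 to 70.3 percentile of all genes tested in dorsal hippocampus. It was 0.10 for Nr1d2, at the 8.93 percentile, and the median over the 10 genes lay at the 40 percentile. In whole hippocampus, with 3 residual degrees of freedom, the median lay at the 33.9 percentile, with Nr1d1 highest (0.13) and Cry2 lowest (0.039).

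**Figure D5:**
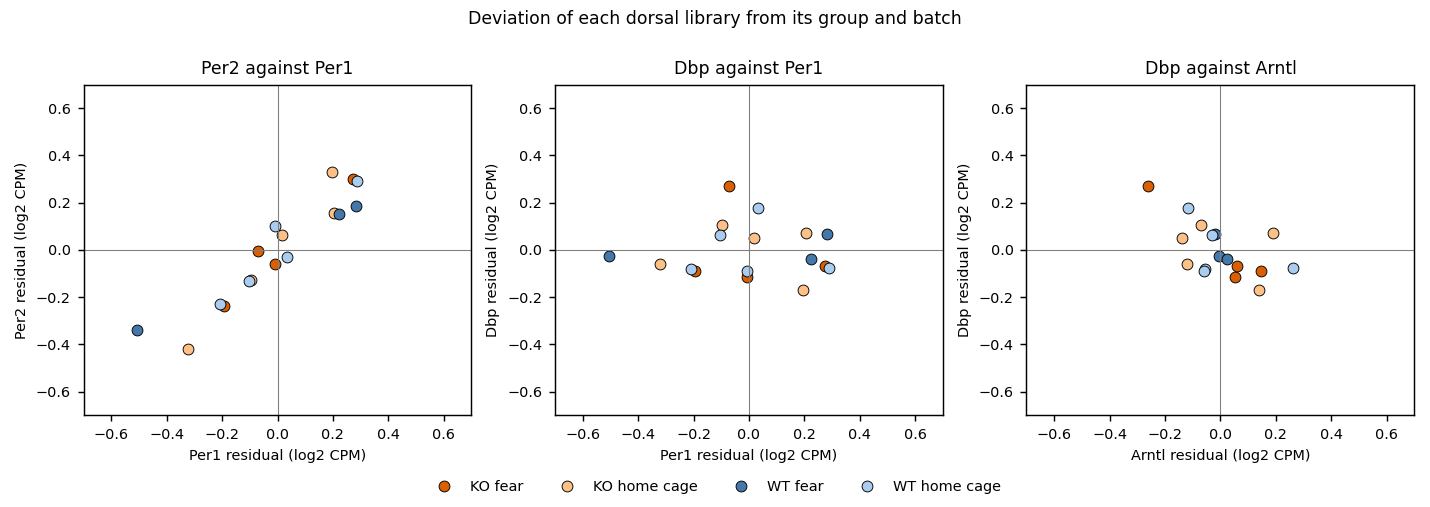
Residual log2 CPM of 17 dorsal libraries after group and batch, for Per2 against Per1 (left), Dbp against Per1 (middle) and Dbp against Arntl (right), coloured by group. Per1 and Per2 rise together (r = 0.94), Dbp shows no slope on Per1 (r = -0.02), and Dbp and Arntl run opposite (r = -0.60).

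Per1 and Per2 were the closest pair among 45, with a Pearson r of 0.94 and a Spearman rho of 0.93 over 17 libraries, and 0.93 without the 2 libraries farthest out. Per2 with Cry2 (0.89), Per1 with Bhlhe40 (0.87) and Per1 with Cry2 (0.82) came next. Dbp, an output of the same E-boxes, had an r of -0.02 with Per1, and Arntl with Dbp gave -0.60 (rho -0.50, and -0.40 without the 2 farthest libraries). The median over the 45 pairs was 0.21. These values describe libraries that share tissue, batch and depth, and no p is given. In whole hippocampus Per1 with Per2 gave -0.06 over 6 libraries. There the 2 libraries of a group deviate equally in opposite directions, so such an r rests on 3 residual degrees of freedom. It cannot decide whether the dorsal likeness holds in whole hippocampus.

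Likeness to all genes tested was listed for 6 of the 10 clock genes. Of the 30 nearest patterns for Per1, Per2, Per3, Dbp, Nr1d1 and Arntl, 5 for each, 0 were among the 10. The clock genes are only 10 of the 14808 genes tested, so this count says little about them. Per2, with an r of 0.94 to Per1, was level with the lowest of the 5 listed for Per1 to the digits shown. The nearest to Per1 was B4galnt3 (r = 0.97), to Per2 Cttnbp2 (0.97), to Per3 Mau2 (0.94), to Dbp Gpr3 (0.93) and to Arntl Fmr1 (0.93), over 17 dorsal libraries. Over the 6 whole hippocampus libraries the same pairs gave 0.34, 0.94, 0.88, -0.80 and 0.37. The 5 nearest to Nr1d1 had an r of 0.93 to 0.95 in dorsal and 0.32 to 0.95 in whole hippocampus. All whole hippocampus values of r again rest on 3 residual degrees of freedom.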

How the data were processed

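RNA of 23 mouse hippocampus libraries was sequenced after NEBNext Ultra II preparation, which does not mark strand, per the labels' protocols. The authors deposited raw counts per gene symbol. HTSeq 0.9.1, STAR, limma, SAMtools 1.1, DESeq2 and the build mm10 are named, without roles, in the submitters' processing notes; the gene annotation was not stated. Spreadsheet dates replaced 26 symbols in the dorsal counts. The authors' normalized values were not used.

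The two-sided quasi-likelihood F test of edgeR 4.0.16 (R 4.3.3) was fitted to the counts with TMM scaling after filterByExpr (minimum count 10, minimum total 15). Whole hippocampus had a term for group (3 residual degrees of freedom), and dorsal hippocampus terms for group and batch (11). Benjamini-Hochberg adjustment ran over every gene of a table, and 0.05 was the threshold. SE was approximated as log2 fold change over the root of F. CPM uses TMM-scaled library sizes, RPKM uses exon lengths of GENCODE M21, and residuals are of log2 CPM with a prior count of 2. DESeq2 1.42.0 was an alternative, as were other filters, scalings, batch subsets, a replicate block and leaving out each library. The fit was tested on simulated counts. Chi-square values of 6.1 to 62.1 per gene separated all pairs of libraries of a group, so no library was merged with another as a duplicate.

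The clock genes, the 6 other gene lists, the markers and the tests were chosen with earlier results of these data known. All 10 clock genes are reported in each comparison. From another list, at most 5 genes past the threshold or, failing these, 2 with the smallest p were eligible to be named.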

Additional observations from a re-analysis of the deposited data

Results flagged for a closer look

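Chance alone marks about 1 in 20 groups as holding a library far from the rest, and 30 pairs of gene and group were examined. Per1 stood at 36.3 CPM in KO home cage 1, below the other 4 libraries at 52.0 to 57.5 CPM. Per2 stood at 27.1 CPM in KO fear 4, above the other 3 at 18.6 to 20 CPM. Arntl stood at 48.5 CPM in WT home cage 1, above the other 4 at 35.6 to 38.9 CPM. Dbp stood at 37.7 CPM in KO fear 1, below the other 3 at 47.9 to 49.3 CPM. The fear response of Bhlhe40 differed between genotypes by a test of the difference itself, at -1.47 on the log2 scale in KO minus WT (edgeR adjusted p = 0.0406).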

How the results depend on the processing

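No log2 fold change of a called clock gene changed sign under any alternative run. Of 10 clock genes, the number called for fear in WT was 3, and it became 5 with DESeq2, 6 with no batch term, and 0 with batch B1 alone, with the 2 groups alone or with a replicate block; all genes called went with it, at 241 in the edgeR fit against 917, 712, 5, 19 and 15. Between KO and WT after fear 7 became 4 with no batch term, 4 in B1 alone and 0 with the block (all genes 3298, against 1544, 2362 and 1). For the difference between fear responses 1 became 4 with DESeq2, 2 with DESeq2 size factors, 4 with no low-count filter, 0 with no batch term and 0 with the block (all genes 71, against 898, 130, 400, 0 and 0). For fear averaged over genotypes 0 became 5 with no batch term (all genes 9, against 1121; DESeq2 called 126). For KO against Het 1 became 2 with DESeq2 and 0 with the 2 groups alone, with the block and without X, Y and Acss2 (all genes 13, against 134, 7, 7 and 1). For Het against WT 0 became 2 with DESeq2. The cause of these changes was not tested.

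Leaving out 1 library at a time gave 0 to 3 clock genes for fear in WT (all genes 6 to 829), 0 to 7 for KO against WT after fear (1 to 4610), 0 to 4 for the difference between responses (0 to 1007), 0 to 2 for KO against Het (6 to 1211), 0 to 4 for Het against WT (0 to 1424) and 0 in each fit for the other 4 comparisons. Where an arm then held 1 library, it was assumed to vary like the other groups.

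The labels do not say that replicate numbers pair libraries, and dorsal deviations did not show such a pairing. Deviations of same-numbered dorsal libraries correlated at -0.31 to 0.38 (9 of 22 pairs over 0.1), and 10 of 44 comparisons were best with their own number. In whole hippocampus, with 2 libraries a group, numbers 1 and 2 must give the same value. It was 0.39 for WT with Het, -0.68 for WT with KO and -0.39 for Het with KO. Pairing could therefore not be decided in whole hippocampus.

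Depth limits the WT fear group most, whose 3 libraries hold 5362773 to 9109104 counts, and whole hippocampus rests on 2 libraries a group.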
